A study of Rattus norvegicus with 3 samples.

Results

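Proteasome subunit genes were read on 3 expression arrays of rat brainstem, 1 for each group. The groups were rats labelled Hand Acu (hand acupuncture), rats labelled TBI (traumatic brain injury) and rats labelled Sham, all killed 1 h after modelling. Brainstem from 5 rats was mixed before RNA extraction, which is taken here to mean 1 pool for each group. Strain, sex and age were not given in the sources used here, and the labels do not say whether the Hand Acu rats were also injured. Members are all genes whose symbol stood alone in the platform's probe table and began with Psma, Psmb, Psmc, Psmd, Psme, Psmf or Psmg, apart from 1 gene that is not reported here. They number 45 of 14217 named genes and are covered by 59 probe sets. Psmb6 and Psme3 are missing because their probe sets carry several symbols. A gene's value is that of its brightest probe set by mean over the 3 arrays, as log2 of the MAS5 signal.

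The proteasome is the protease that breaks down proteins tagged with ubiquitin. Its barrel-shaped core is built of alpha rings, which gate the entrance, and beta rings, which hold the active sites. A cap sits on the barrel: the ATPases of its base unfold the substrate and thread it into the core, and its lid removes the ubiquitin chain. In the brain the proteasome turns over synaptic proteins and clears damaged ones, and cells short of proteasome activity raise all subunit genes together through the transcription factor encoded by Nfe2l1.

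The arrays held 31099 probe sets each, with median signals from 174.1 to 174.7. Of the named genes, 9241 had a mean log2 signal at or above the floor of 7.44, the median of non-control probe sets, and 44 of the 45 members were among them. At a higher floor of 9.25, 41 members and 5255 genes remained. Each group is a single array, so no test was run, no difference has an error of its own, and the number of arrays limits the precision. A change in RNA per cell and a change in the number of cells cannot be told apart in such tissue. Of 9 brainstem markers 6 were found and 3 lay above the floor. All 3 were higher on the TBI and on the Hand Acu array than on the Sham array. Their summed signal was 939 for Hand Acu, 1027 for TBI and 658 for Sham. All 5 cerebellum markers that passed the floor had less signal on the TBI than on the Sham array, with a median log2 difference of −0.70, and less on the Hand Acu than on the Sham array, with a median of −0.76. The summed signal of these 5 was 6148 for Hand Acu, 6613 for TBI and 10148 for Sham. Cerebellar signal was thus present on all 3 arrays. RNA integrity was read from beta-actin, whose 3' signal exceeded its 5' signal by a factor of 6.69 for Hand Acu, 6.37 for TBI and 5.58 for Sham. For Gapdh the same factor was 1.280 for Hand Acu, 1.203 for TBI and 1.250 for Sham, another order of arrays. All 3 blood markers were higher for TBI minus Sham (median 0.33) and all 3 lower for Hand Acu minus TBI (median −0.26). The 4 choroid plexus markers above the floor had medians of 0.15 for TBI minus Sham, −0.26 for Hand Acu minus TBI and −0.27 for Hand Acu minus Sham. The part of tissue composition and RNA integrity in the proteasome values was not tested.

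Promoter sequences of 41 of the 45 members, each 250 bases before to 50 after the start of the gene, were found in RefSeq (assembly GRCr8). They are shown because a shared promoter element is how these genes are known to move together, and the rule that chose the members used no sequence. The core of the antioxidant response element, the kind of site that the Nfe2l1 product binds, was searched as TGACNNNGC on both strands. This element and those that follow were chosen after the members' values had been seen. It was present in 7 members (17.1%), against 14.4% of 7720 promoters of genes above the floor and 12.2% of all 27457 promoters. The 7 genes were Psma3, Psmb2, Psmb5, Psmd1, Psmd3, Psmd9 and Psme4, with 9 matches in all. In 5 of them there was 1 match, shown here on the strand on which the motif reads forward, with the match in capitals and its first base in the promoter 12 bases before the start (Psma3, chr6:95219727-95219755, minus strand), 68 before (Psmb2, chr5:144254980-144255008, plus strand), 60 before (Psmb5, chr15:32047421-32047449, minus strand), 13 after (Psmd3, chr10:84139941-84139969, minus strand) and 55 before (Psme4, chr14:108706578-108706606, minus strand).
Psma3: ctcatggtgcTGACCCGGCaggccacaga
Psmb2: cccgcgccaaTGACCGGGCggtcgcatat
Psmb5: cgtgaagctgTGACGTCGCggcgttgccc
Psmd3: ggccgcacgaTGACCGAGCagctgcaaac
Psme4: ggcgaggaggTGACCCAGCggctttctcc

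A second element was more frequent. The core of the site for ETS transcription factors, CGGAAG on either strand, was in 22 of 41 member promoters (53.7%), against 32.6% of promoters of genes above the floor and 17.4% of all promoters. It was in 7 of 12 core promoters and 10 of 14 cap promoters. Of its 37 matches, 34 began before the start of the gene and 31 lay within 100 bases of it. Most of the searched stretch, 250 bases against 50, lies before the start. Positions were not counted in other promoters, so no clustering is read from them. Windows of 5 of these 22 members are shown, from the core and the cap, chosen because their values are given below, with 1 match in capitals, on the strand on which it reads forward. The window of Psmb4 holds another match in lower case, and Psmb7 and Psmd13 have another outside the window. They lie at chr3:42827508-42827533 (Psmb7, minus strand), chr2:185134574-185134599 (Psmb4, plus), chr15:21022236-21022261 (Psmc6, plus), chr10:65932311-65932336 (Psmd11, minus) and chr1:205394180-205394205 (Psmd13, plus).
Psmb7: ccagctgcgcCGGAAGtgtaaattct
Psmb4: tcaccggaagCGGAAGtcgtcgtttg
Psmc6: gcgggccagcCGGAAGgggcggagcc
Psmd11: aacacacaccCGGAAGaccagccctc
Psmd13: ggcgcggcgcCGGAAGtgagtgagca

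Of the other elements searched on both strands, CCAAT was in 51.2% of member promoters and 37.9% of those of genes above the floor, and the GC box GGGCGG in 70.7% and 64.6%. The TATA box, TATAAA, was in 9.76% and 6.27%. Matches of the antioxidant core shared bases with a CCAAT and with a GC box in 1 member, Psmb2, and no other pair of these elements shared bases in a member. The median GC content was 57% in member promoters and 61.7% in promoters of genes above the floor. A match of letters is a description and not a bound site.

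The first comparison, TBI against Sham, addresses the brainstem early after injury. Proteasome genes differed little: past 1.2-fold there were 0 of 44 members on the higher side and 0 on the lower side of the TBI array, against 7.68% and 8.15% of all 9241 genes. Past 1.5-fold it was again 0 and 0, against 0.866% and 0.682%. Among the brighter genes above the higher floor, where most members lie, these shares were 4.26% and 4.34%. The median log2 difference was 0.04 over the members and 0.00 over all genes, and 28 members were higher and 16 lower (51% of all genes were higher). With all genes above the floor put in 10 equal bins by mean signal, the brightest bin had a median of 0.04 and the next 0.01. Core and cap have genes in both bins, and the part of brightness in the members' values was not tested. The core had a median of 0.06 and the cap of 0.06, both smaller with quantile normalization of the arrays, at 0.04 and 0.02. Every core gene lies above the higher floor and has a single probe set above the floor. Settings of the floor and of the probe set therefore could not change the core median. With the second brightest probe set of each gene that has several, the cap median was 0.02.

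**Figure D1:**
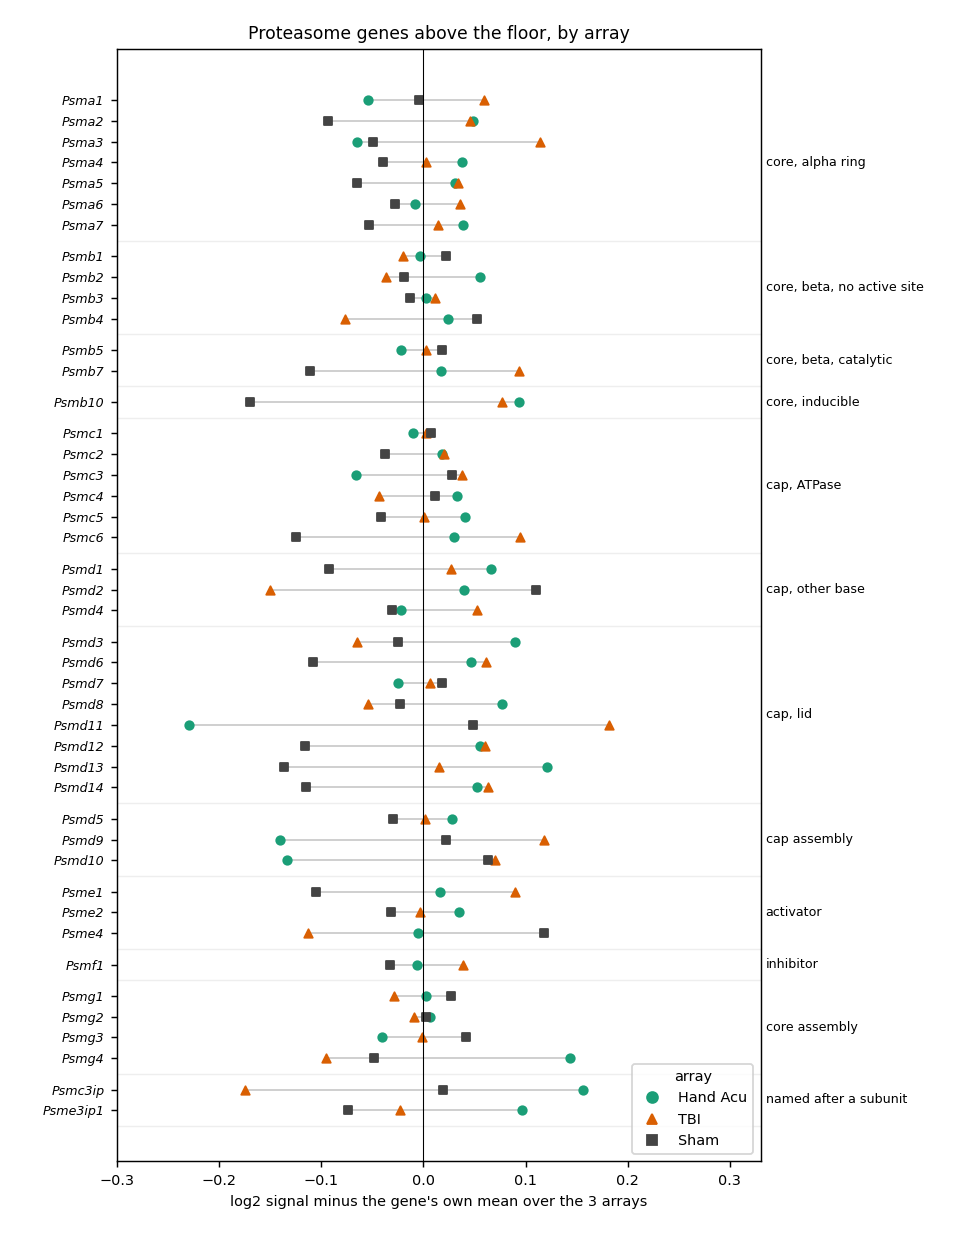
Each row is 1 of the 44 proteasome genes above the floor, grouped by role. Points give the log2 signal on the Hand Acu (circles), TBI (triangles) and Sham (squares) arrays minus the gene's own mean over the 3 arrays. The Sham array holds the lowest point in 22 of 44 rows, against 36.3% of all genes above the floor. The longest line is that of Psmd11.

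The rings of the core are given separately, and the difference between them was not tested. All 7 alpha subunit genes were higher on the TBI array, by 0.04 to 0.16 in log2, with a median of 0.07. All 7 stayed higher with quantile normalization, whereas median centring shifts all genes alike by too little to turn any of them. Psma2, Psma6 and Psma7 lie in the brightest bin, whose median over all genes was 0.04. Of 6 constitutive beta subunit genes, 2 were higher and 4 lower, with a median of −0.02, and the same counts with quantile normalization. The log2 signal of Psma3 was 10.63 on the TBI array and 10.46 on the Sham array, the largest gap of the alpha ring (1.12-fold). Psma2, another alpha subunit, had 11.87 on the TBI array and 11.73 on the Sham array. Psma5 differed by 0.10, while Psma1, Psma4, Psma6 and Psma7 differed by 0.04 to 0.07.

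In the beta ring, Psmb7, the subunit with trypsin-like activity, had 11.11 on the TBI array and 10.91 on the Sham array, 1.15-fold higher. Psmb5, the subunit with chymotrypsin-like activity, had 12.01 on the TBI array and 12.02 on the Sham array. Psmb6, the other constitutive catalytic subunit, is not among the members. The 2 catalytic subunits read here held both a member 0.20 higher and a member at −0.02. Psmb4, a beta subunit without an active site, was the lowest of the core, with 12.46 on the TBI array and 12.59 on the Sham array. Psmb1, Psmb2 and Psmb3, which also lack active sites, differed by −0.04, −0.02 and 0.02.

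Between core and cap, the largest differences were in the cap. Over the 6 ATPase genes the median was 0.03, and Psmc6 was the only 1 of them higher by 0.10 or more, with 11.32 on the TBI array and 11.10 on the Sham array. The other 5 lay between −0.05 (Psmc4) and 0.06 (Psmc2). In the base, Psmd2, a scaffold that docks ubiquitin shuttle proteins, was the lowest of all members: 11.23 on the TBI array and 11.49 on the Sham array, a log2 difference of −0.26 (just short of the threshold, which is 0.263 in log2). Psmd1, its partner scaffold, differed by 0.12 and Psmd4, a ubiquitin receptor, by 0.08.

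Of the 8 lid genes, 5 were higher and 3 lower. Psmd6, Psmd11, Psmd12, Psmd13 and Psmd14 were higher by 0.13 to 0.18, whereas Psmd3, Psmd7 and Psmd8 lay between −0.04 and −0.01. On their second brightest probe sets Psmd11 and Psmd14 differed by only 0.02 each, and the lid median of 0.14 was then 0.02. The third probe set of Psmd14 differed by 0.55 (1.46-fold), and with the mean of each gene's probe sets the lid median was 0.12. Psmd14, the deubiquitinase of the lid, had 11.59 on the TBI array and 11.42 on the Sham array. Psmd12, a structural lid subunit, had 11.05 on the TBI array and 10.87 on the Sham array. Over all 9241 genes, 27.1% were 0.1 or more higher, against 12 of 44 members, and 26.6% were 0.1 or more lower, against 4 of 44.

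**Figure D2:**
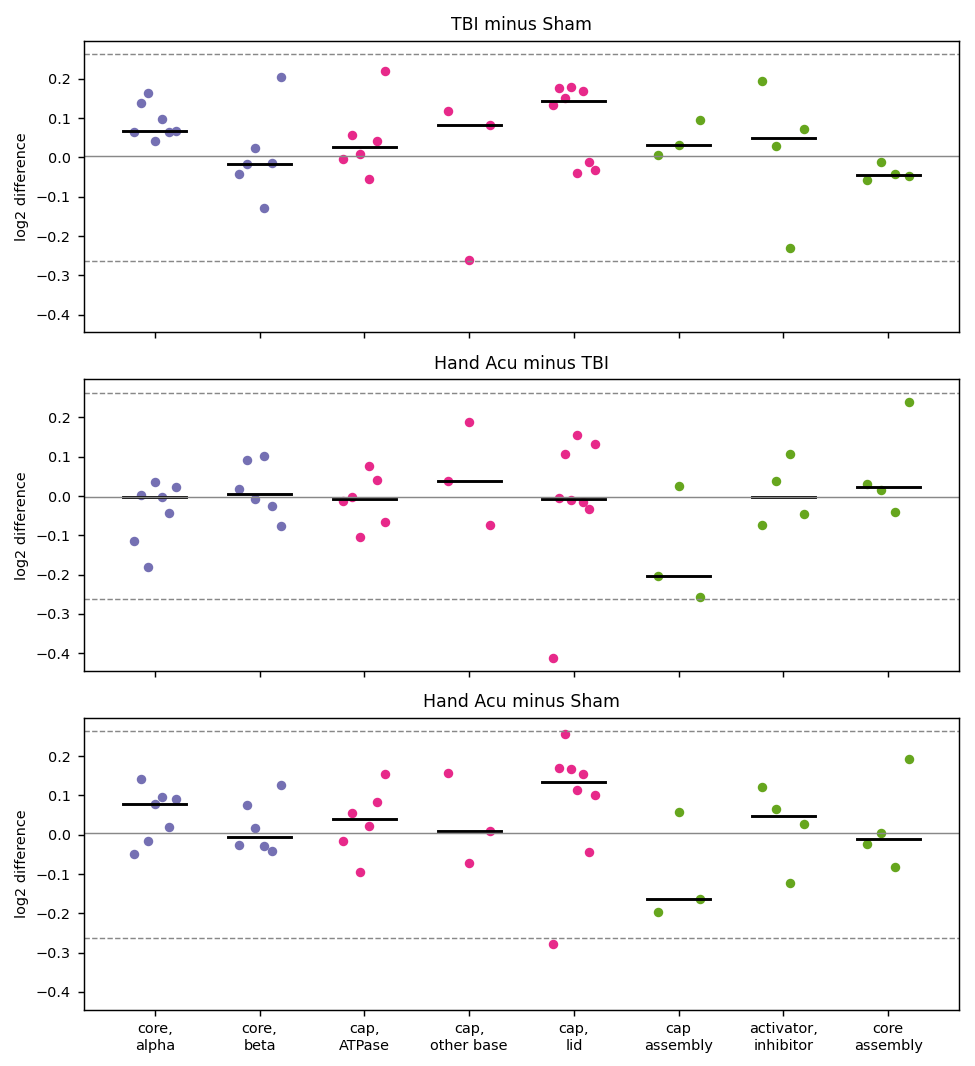
Log2 differences of the proteasome genes above the floor, 1 point per gene, for the 3 comparisons and by role, with a black bar at each group's median. Colours mark core (purple), cap (pink) and other groups (green), the grey line is the median of all 9241 genes and dashed lines mark 1.2-fold. In TBI minus Sham all 7 alpha genes lie above 0 (also with quantile normalization), and in Hand Acu minus TBI the lid gene Psmd11 lies below the lower dashed line.

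The regulators outside core and cap went both ways. Psme1, a subunit of the interferon-inducible activator ring, had 10.73 on the TBI array and 10.54 on the Sham array, whereas Psme2, its partner in that ring, had 9.81 on the TBI array and 9.78 on the Sham array. Psme4, an activator that caps the core without ATP, was lower: 9.26 on the TBI array and 9.49 on the Sham array, a difference of −0.23. Psmf1, an inhibitor of the core, differed by 0.07. The 4 Psmg genes encode chaperones that assemble the core, and all 4 lay slightly lower on the TBI array, from −0.06 to −0.01, though with quantile normalization 1 of them was higher, by 0.004. The cap assembly chaperones Psmd5, Psmd9 and Psmd10 differed by 0.03, 0.10 and 0.01.

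Inducible beta subunits replace constitutive ones under interferon. Psmb10 had 8.92 on the TBI array and 8.67 on the Sham array, 1.19-fold higher and the largest positive difference of all members. Psmb9 lay below the floor, with 7.15 on the TBI array and 7.40 on the Sham array, and no direction is read from it. Of 8 microglia and immune markers above the floor, 7 were higher on the TBI array, by a median of 0.22, and their summed signal was 5423 on the TBI array and 4638 on the Sham array. Of the 3 interferon response markers above the floor 2 were higher, with a median of 0.07, which turned to −0.01 with 1 higher under quantile normalization. The part of these cells in the Psmb10 and Psme1 values was not tested.

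The second comparison sets the Hand Acu array against the TBI array, the pair nearest to the effect that the series title names. The labels do not say whether the Hand Acu rats were also injured, so no effect of treatment is read from it. Members were split evenly, with 22 higher and 22 lower on the Hand Acu array (49.3% of all genes were higher) and a median log2 difference of 0.00. The core had a median of −0.00 and the cap of −0.01, and both turned positive with quantile normalization, which put 25 members higher and 19 lower. At least 1.2-fold, 1 member was higher (6.38% of all genes) and 1 was lower (6.49% of all genes). Above the higher floor these shares of all genes were 2.72% and 2.91%. By 1.5-fold it was 0 members either way, against 0.617% and 0.595% of all genes. By 0.1 in log2, 9 members were higher and 6 lower, against 23.8% and 24.3% of all genes.

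The member that was lower is Psmd11, a lid subunit that clamps the cap to the core. It had 10.88 on the Hand Acu array and 11.29 on the TBI array, a difference of −0.41 (1.33-fold lower), while the Sham array had 11.16. Genes above the floor were put in 10 equal bins by mean signal, and the middle 95% of differences in the bin of Psmd11 ran from −0.24 to 0.22. Its next probe set was lower by less, with 11.01 for Hand Acu, 11.10 for TBI and 11.07 for Sham. The difference there was −0.09, so the call at 1.2-fold rests on 1 of 2 probe sets. Both put the Hand Acu array lowest.

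The member that was higher is Psmc3ip, which is named after an ATPase subunit but encodes a protein of meiotic recombination. It had 7.68 on the Hand Acu array and 7.35 on the TBI array, close to the floor. Among genes of subunits, regulators and assembly factors the highest was Psmg4, an assembly chaperone of the core, with 10.65 on the Hand Acu array and 10.41 on the TBI array. That is a difference of 0.24, against a middle 95% of −0.26 to 0.23 for genes of like signal. Psmd11 and Psmg4 were the only members of 44 outside the middle 95% of their bin in this comparison. For TBI minus Sham the number was 0 of 44, and for Hand Acu minus Sham it was 1 of 44, again Psmd11. By construction 95% of all genes in a bin lie inside the range. In none of the comparisons did the members outside it exceed the share that this leaves.

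Of the 3 assembly chaperones of the cap, 2 were lower on the Hand Acu array. Psmd9 had 8.22 on the Hand Acu array and 8.48 on the TBI array, and Psmd10 had 10.47 on the Hand Acu array and 10.67 on the TBI array. Psmd5, the remaining chaperone, was highest on the Hand Acu array, with 10.40 on the Hand Acu array and 10.37 on the TBI array. The 3 genes had a median of −0.20. Of the core, Psma3 and Psma1 were lowest, at −0.18 and −0.11, and Psmb4 was highest at 0.10.

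Several members that were lower on the TBI than on the Sham array were higher on the Hand Acu array. Members went both ways: 12 of 44 were lowest on the TBI array (31.7% of all genes) and 18 highest (33.4%). Psma3, Psmd11, Psmb7 and Psme1 are among those highest there. Psmd2 had 11.42 on the Hand Acu array, against 11.23 on the TBI array, a difference of 0.19. Psmd3 and Psmd8, both lid subunits, were 0.16 and 0.13 higher, though they had differed by only −0.04 and −0.03 for TBI minus Sham. Psme4 was 0.11 higher, with 9.37 on the Hand Acu array and 9.26 on the TBI array. The TBI array is part of this comparison and of TBI minus Sham, and its own deviations enter both with opposite signs.

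The inducible Psmb10 differed by 0.02, with 8.93 on the Hand Acu array and 8.92 on the TBI array. Psmb9 had 7.49 on the Hand Acu array and 7.15 on the TBI array, again with a mean below the floor. The 8 microglia and immune markers had a median of −0.15 here, with 3 higher and 5 lower. Psme1 differed by −0.07, Psme2 by 0.04 and Psmf1 by −0.04.

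**Figure D3:**
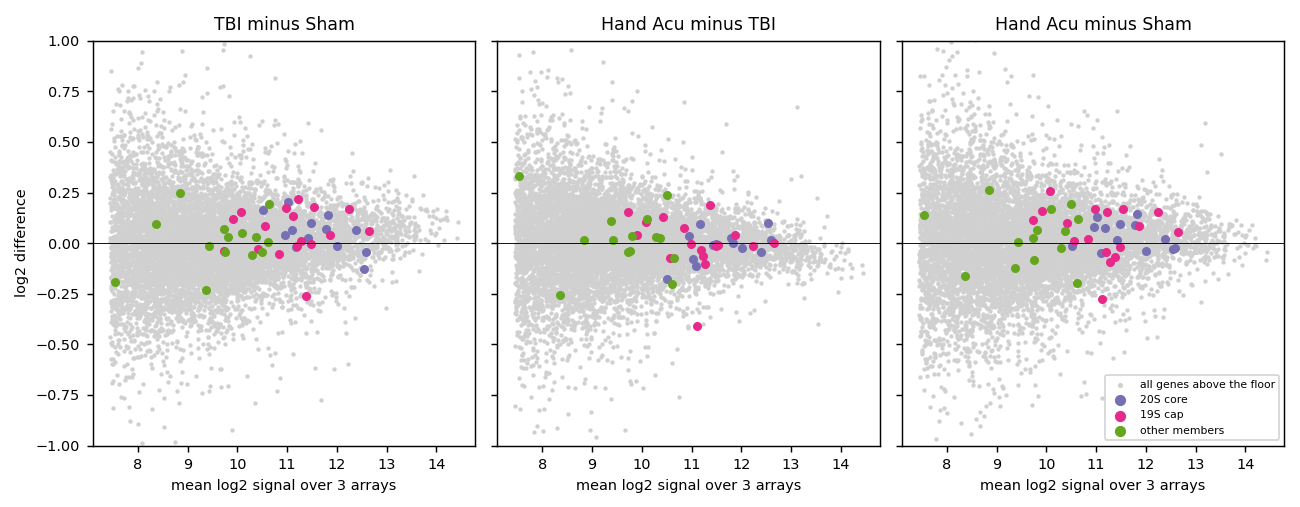
Log2 difference against mean log2 signal over the 3 arrays for all genes above the floor (grey) and for core (purple), cap (pink) and other (green) proteasome genes, 1 panel per comparison. The vertical axis is limited to 1 in either direction, which leaves out 9, 4 and 18 genes. Members lie within the cloud of genes of like signal, with Psmd11 at its lower edge for Hand Acu minus TBI.

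Hand acupuncture against Sham sets the same Hand Acu array against the third array. Of 44 members 29 were higher on the Hand Acu array (51% of all genes) and 15 lower, with a median of 0.06 against 0.00 over all genes. The brightest bin of all genes had a median of 0.02. At 1.2-fold, 1 member was higher (8.16% of all genes) and 1 lower (8.39% of all genes), shares that were 4.34% and 4.49% above the higher floor. By 1.5-fold it was 0 members either way, against 0.996% and 0.898% of all genes. By 0.1 in log2, 15 members were higher and 4 lower, against 26.6% and 26.4% of all genes. Here the cap, with a median of 0.08, lay above the core, with a median of 0.02, and the gap of the core minus the cap was −0.06 (−0.04 with the second brightest probe set).

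Psmb10 was the member at least 1.2-fold higher, with 8.93 on the Hand Acu array and 8.67 on the Sham array, a difference of 0.26 that sits at the threshold and was 0.24, short of it, with the offset of 50 added to the signal. Psmd11 was the member at least 1.2-fold lower, at −0.28 (1.21-fold lower), a call that was lost at −0.17 with the mean of its probe sets and at −0.06 on the second brightest. Psmd13, a lid subunit, came next to Psmb10, with 10.20 on the Hand Acu array and 9.94 on the Sham array, a difference of 0.26. Psmg4 and Psmd12 were 0.19 and 0.17 higher, and Psme3ip1, which encodes a protein that binds the nuclear activator Psme3, was also 0.17 higher. On the low side Psmd10 differed by −0.20, Psmd9 by −0.16 and Psmc3, an ATPase, by −0.09. Psme4 differed by −0.12, but by 0.12 on its second brightest probe set.

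The lid had a median of 0.14, with 6 of 8 genes higher. Its exceptions were Psmd11 and Psmd7, with Psmd7 at −0.04 (0.03 on its second brightest probe set). In the alpha ring the median was 0.08 and 5 of 7 genes were higher, the highest being Psma2, with 11.88 on the Hand Acu array and 11.73 on the Sham array. For constitutive beta genes the median was −0.00, and 3 of 6 were higher. Both this comparison and TBI minus Sham subtract the same Sham array.

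Over the 3 arrays, 22 of 44 members had their lowest signal on the Sham array, against 36.3% of all genes and 37.3% of those above the higher floor, and with quantile normalization it was 23. This held for 7 of 13 core genes and 9 of 17 cap genes. Another 12 were lowest on the TBI array (31.7% of all genes) and 10 on the Hand Acu array (32% of all genes). The highest signal was on the Hand Acu array for 17 members (32.3% of all genes), on the TBI array for 18 (33.4%) and on the Sham array for 9 (34.3%). The distance from the lowest to the highest array had a median of 0.12 in log2 over the members, against 0.18 over all genes and 0.14 over genes above the higher floor. It was 0.09 for the core and 0.16 for the cap. Psmc1, an ATPase, differed least within the cap, with 11.47 for Hand Acu, 11.49 for TBI and 11.49 for Sham.

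Genes with repeated probe sets have more than 1 reading on each array. Of the 45 members 9 had several probe sets, and 5 of these had more than 1 above the floor. All probe sets of a gene went the same way in 3 of the 5 genes for TBI minus Sham, in 2 for Hand Acu minus TBI and in 2 for Hand Acu minus Sham. For Psmc6 the brightest 2 probe sets gave 0.22 and 0.14 for TBI minus Sham and the third gave −0.06, and the third also went the other way in both other comparisons. For Psmd14 the 3 gave 0.18, 0.02 and 0.55, the last from a probe set with 9.80 for Hand Acu, 9.93 for TBI and 9.38 for Sham. For Hand Acu minus TBI the 3 of Psmd14 gave −0.01, 0.02 and −0.13. Psmd7 gave −0.01 and −0.03 for TBI minus Sham, but opposite directions in both other comparisons: −0.03 and 0.06 for Hand Acu minus TBI, −0.04 and 0.03 for Hand Acu minus Sham.

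The probe sets of Psme4 also differed in order. For Hand Acu minus TBI all 3 were higher, at 0.11, 0.30 and 0.33. For TBI minus Sham they gave −0.23, −0.18 and 0.07, and for Hand Acu minus Sham −0.12, 0.12 and 0.40. The dimmest had 8.74 for Hand Acu, 8.41 for TBI and 8.34 for Sham.

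**Figure D4:**
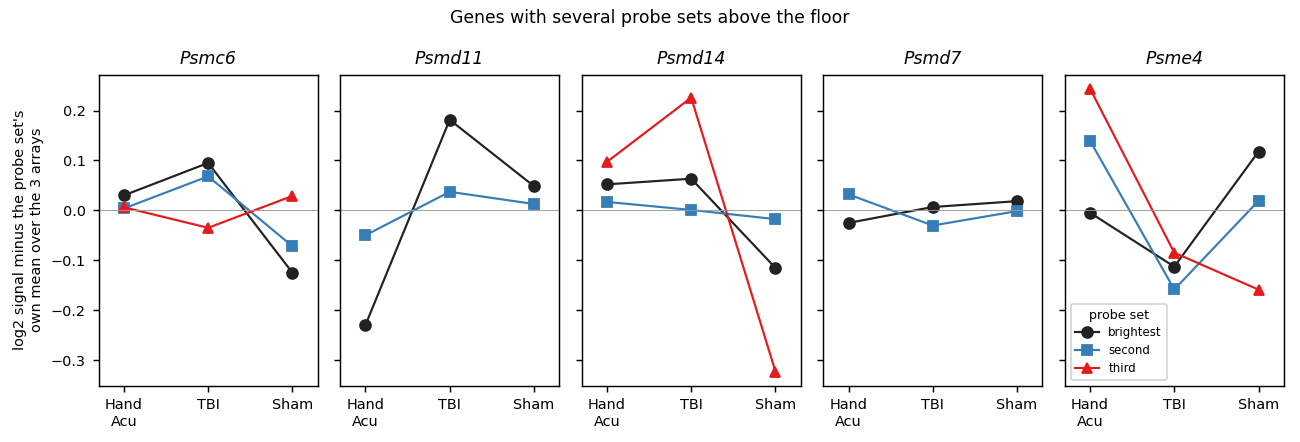
Log2 signal of each probe set above the floor minus its own mean, on the Hand Acu, TBI and Sham arrays, for the 5 members with several such probe sets, ordered by brightness (black circles, blue squares, red triangles). Psmd11 shows 1 order of arrays in both probe sets at different sizes, and Psmc6, Psmd14, Psmd7 and Psme4 show different orders.

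Other genes of the pathway were taken from a list of 27 genes, of which 21 had a single-symbol probe set, all above the floor. For TBI minus Sham 16 were higher (51% of all genes) and 5 lower, with a median of 0.02, and 0 were past 1.2-fold on either side (7.68% and 8.15% of all genes). Nfe2l1, which encodes the transcription factor of the subunit genes, had 10.72 for Hand Acu, 10.71 for TBI and 10.72 for Sham. These are RNA signals, and the activity of its product was not tested. For Hand Acu minus TBI 11 were higher (49.3% of all genes) and 10 lower. Past 1.2-fold 0 were higher and 2 lower, against 6.38% and 6.49% of all genes: Nsfl1c, a cofactor of the segregase Vcp, with 10.74 on the Hand Acu array and 11.06 on the TBI array, and Akirin2, which carries proteasomes into the nucleus, with 7.73 on the Hand Acu array and 8.03 on the TBI array. For Hand Acu minus Sham 14 were higher (51% of all genes) and 7 lower, with 1 past 1.2-fold on either side (8.16% and 8.39% of all genes). Ube3c, a ubiquitin ligase that works on the proteasome, was 0.31 higher and Akirin2 differed by −0.29. Pomp, which matures the core, had 12.38 for Hand Acu, 12.28 for TBI and 12.14 for Sham.

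Sets of other large complexes were measured beside them. The 39 ribosomal protein genes above the floor had medians of 0.08 for TBI minus Sham, −0.06 for Hand Acu minus TBI and 0.00 for Hand Acu minus Sham, which with quantile normalization were 0.02, −0.03 and −0.02. In the brightest bin of all genes the medians for these comparisons were 0.04, −0.02 and 0.02. As deposited the ribosomal genes were highest on the TBI array in 69.2% of cases, against 40.9% for the proteasome genes. The share was 33.4% of all genes and 35.7% of those above the higher floor. It was not computed with quantile normalization. The 8 genes of the chaperonin, the barrel that folds actin and tubulin, had medians of 0.02, −0.04 and 0.01 for the same comparisons, and the first and last of these turned negative with quantile normalization. These differences between sets were not tested.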

How the data were processed

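The deposited values are log2 signals, 1 per probe set, from MAS5, which the submitters' processing notes name without a version. On the linear scale every array had the same mean, 500.0, after trimming 2% from either end, and log base and scaling were inferred from this. Per the labels' protocols, 6 µg of total RNA went into biotin-labelled cRNA. Of 31042 non-control probe sets, 20826 had 1 gene symbol in the platform annotation of 2016, 436 several and 9780 none. All 45 member symbols matched RefSeq (GRCr8) by gene identifier. One gene is not reported here.

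Log2 differences were taken as deposited, for 3 comparisons, with 1 array per group and no test. The fold threshold was 1.2. Named members were those past it, the 5 highest and 5 lowest of each comparison, catalytic, inducible and regulatory subunits, the brightest and dimmest of core and cap, and genes whose probe sets disagreed. Other members were named by role after their values were seen. The members and lists were chosen with earlier results of these data known. The steps were tested on simulated data. Python 3.11.15, numpy 2.4.6, pandas 2.3.3 and matplotlib 3.10.9 were used.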

Additional observations from a re-analysis of the deposited data

How the results depend on the processing

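The settings compared were no floor, a higher floor (9.25), an offset of 50, median centring, quantile normalization, the mean of a gene's probe sets, the second brightest probe set and a threshold of 1.5-fold. With no replicate spread to set them against, core and cap medians were counted as moved if they changed sign or by over 1.5 times, a rule set after the values were seen; the causes were not tested. For TBI minus Sham, quantile normalization gave 0.036 for the core, against 0.064, 0.023 for the cap, against 0.058, and 0.014 for the core minus the cap, against 0.006, and the second brightest probe set gave 0.024 for the cap and 0.040 for the core minus the cap. For Hand Acu minus TBI all were near 0: quantile normalization gave 0.0018 for the core, 0.0036 for the cap and −0.0018 for their gap, the mean of probe sets −0.0015 for the cap and −0.0011 for the gap, and the second brightest probe set 0.016 for the cap and −0.019 for the gap, against −0.0025, −0.0052 and 0.0026. For Hand Acu minus Sham the gap was −0.036 with the second brightest probe set, against −0.062, and no core or cap median moved. Counts past 1.2-fold are small and moved by single genes; the cause was not tested except where the setting removes or adds the gene. Members at least 1.2-fold lower for TBI minus Sham were 1 (Psmd2, −0.27) with quantile normalization, against 0. Members higher for Hand Acu minus TBI were 0 with the higher floor, the offset of 50 and the 1.5-fold threshold, and 2 with no floor and with the second brightest probe set, against 1. Members lower were 0 with the mean of probe sets, the second brightest probe set and the 1.5-fold threshold, against 1 (Psmd11, then −0.25 and −0.09). For Hand Acu minus Sham, members higher were 2 with quantile normalization and 0 with the higher floor, the offset of 50 and the 1.5-fold threshold, against 1, and members lower were 0 with the mean of probe sets, the second brightest probe set and the 1.5-fold threshold, against 1. No sign of a named member past 1.2-fold turned under any setting. Leaving out a replicate could not be done with 1 array per group. No paired analysis was possible because each group has 1 array. Psmb9 lay below the floor and Psmc3ip close to it, where signal stands least above background.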
